A study of Homo sapiens with 6 samples.

Results

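The PRC1 genes are 9 members of Polycomb repressive complex 1, chosen by gene symbol: RING1, RNF2, BMI1, PCGF2, CBX2, CBX7, CBX8, PHC1 and KDM2B. Each symbol matched 1 of the 58884 Ensembl genes in the table, and all 9 were among the 16059 genes left for testing after genes with low counts were removed. RNA was sequenced from DLD1 cells, a colorectal cancer cell line, in 3 libraries of parental cells and 3 libraries of cells with the K477A and R478A changes in p85β, here p85β KR-AA cells. p85β is the regulatory subunit of PI3 kinase encoded by PIK3R2, and the changes replace basic residues of its nuclear localization sequence. Both groups carry the PIK3CA helical domain mutation of DLD1, and the labels name no treatment. The changes were knocked into the endogenous gene by CRISPR/Cas9, and the study describes a pair of independently derived homozygous clones, while the labels do not say which clone gave which library. Nor do they say that the libraries of a group came from separate cultures, so that p-values measure the spread between these libraries, which may be technical.

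PRC1 is a chromatin complex that places ubiquitin on histone H2A and helps to keep developmental genes silent. Its catalytic core pairs RING1 or RNF2 with a PCGF protein such as BMI1 or PCGF2. Canonical complexes add a CBX protein, which binds the H3K27me3 mark laid down by PRC2 through EZH1 and EZH2, and a PHC protein, while variant complexes use RYBP or YAF2 and, in one form, KDM2B, which binds unmethylated CpG islands. BMI1 is known as a gene of intestinal stem cells, and the CDKN2A locus is a classical target of BMI1.

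The counts summed to between 20301396 and 26712816 per library. The share of counts from genes over 4000 bases long was 9.49% to 12.1% in the parental group and 27.7% to 28.9% in the p85β KR-AA group. Of 12 colon epithelium markers, 11 were above 1 CPM (the count scaled to 1000000 counts of the library after TMM, the scaling of edgeR) in every parental library and 10 in every p85β KR-AA library, with summed levels of 57670 to 79728 and 9105 to 10641 CPM. Of 9 mesenchyme markers, 3 and 6 were above 1 CPM, and their summed levels were 7.65 to 10.4 and 6311 to 7227 CPM. Among the latter, COL3A1 and ZEB1 were at 0 in parental libraries and COL1A2 at 0 in p85β KR-AA libraries. The summed levels were 521 to 610 and 336 to 360 CPM for 7 neuron markers (DCX and ELAVL4 at 0 in both groups), 4.85 to 6.92 and 4.25 to 5.14 CPM for 5 blood markers, and 42.4 to 46.9 and 84.0 to 97.5 CPM for 5 hepatocyte markers (TTR at 0 in both groups). These sums rest on few genes. SERPINA1 made up most of the hepatocyte sum, with means of 43.8 CPM in parental and 89.9 CPM in p85β KR-AA cells. Keratins KRT8, KRT18 and KRT19 made up most of the colon sum. CDH1 and ESRP1 were higher in p85β KR-AA cells. CDH1 was at 97.3 ± 33.7 and 344 ± 20.2 CPM and ESRP1 at 13.3 ± 2.87 and 19.95 ± 0.955 CPM (SD, n = 3 each, parental first). All other colon markers had lower means in p85β KR-AA cells. Among them were CDX2 (347 and 88.0 CPM), EPCAM (313 and 172 CPM), ELF3 (447 and 314 CPM) and VIL1 (27.4 and 8.65 CPM). FN1 and VIM made up most of the mesenchyme sum in p85β KR-AA cells, and in the neuron list TUBB3 had means of 561 and 211 CPM while NEFL was at 0 in all parental libraries and 132 ± 1.97 CPM in p85β KR-AA cells. The part of these differences between the groups in the PRC1 results was not tested. In bulk RNA, fewer cells with a transcript and less transcript per cell cannot be told apart.

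Every PRC1 gene differed between the groups. RNF2, BMI1, PHC1 and KDM2B were higher in p85β KR-AA cells and RING1, PCGF2, CBX2, CBX7 and CBX8 were lower, with log2 fold changes between -2.75 and 2.12 (edgeR quasi-likelihood test, Benjamini-Hochberg adjustment over all tested genes, adjusted p at most 0.0036). These directions hold for the TMM scaling, and with an offset for gene length KDM2B turned to -0.60. Of all tested genes, 41.6% were higher and 32.7% lower at an adjusted p under 0.01, so that 4 higher and 5 lower genes of 9 are to be read against a change that reached most genes. With the study's further threshold of a fold change of at least 3, RNF2, BMI1 and PHC1 were up-regulated and RING1, CBX7 and CBX8 down-regulated, against 28.6% up-regulated and 17.6% down-regulated among all tested genes. The median log2 fold change was -0.93 over the PRC1 genes and 0.32 over all tested genes. The libraries of the groups did not overlap in any of the 9 genes, and in 83.5% of all tested genes. Scaling by library totals alone raised the median gene by 0.92 on the log2 scale and made 87.9% instead of 61.9% of the genes past both thresholds up-regulated, and it left 4 PRC1 genes up-regulated and 1, RING1, down-regulated.

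**Figure D1:**
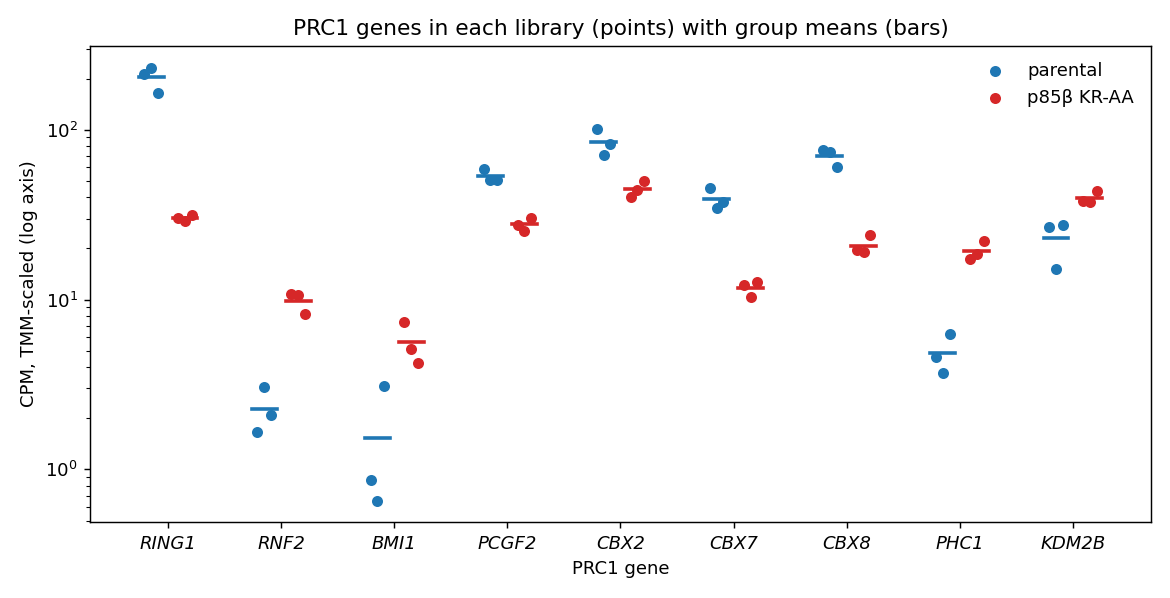
CPM of each PRC1 gene in each library on a log axis, in blue for the 3 parental and in red for the 3 p85β KR-AA libraries, with a bar at each group's mean. For RING1 the parental libraries lie between 164 and 232 CPM and the p85β KR-AA libraries between 29.0 and 31.4 CPM, and for RNF2, BMI1, PHC1 and KDM2B the red points lie above the blue ones.

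RING1 and RNF2 are the alternative ubiquitin ligases of the complex, and they moved in opposite directions. RING1 (ENSG00000204227, plus strand of chromosome 6, 33176277 to 33180499 of GRCh37, like all gene positions below) had 213, 232 and 164 CPM in parental libraries 1 to 3 and 30.2, 29.0 and 31.4 CPM in p85β KR-AA libraries 1 to 3. Every p85β KR-AA library was far below the lowest parental one. Its level was 6.72-fold lower, -2.75 on the log2 scale (SE 0.15, edgeR adjusted p = 9.20e-09), the largest decrease among the PRC1 genes. RNF2 (ENSG00000121481, plus strand of chromosome 1, 185014658 to 185071735) had only 25, 42 and 34 counts in the parental libraries, or 1.66, 3.06 and 2.098 CPM. It had 393, 306 and 225 counts in the p85β KR-AA libraries, or 10.7, 10.7 and 8.20 CPM. The groups were again apart, by 2.12 on the log2 scale (SE 0.26, edgeR adjusted p = 5.84e-06), which is 4.36-fold higher. With both a length and a GC offset in the fit, RNF2 was at 0.57 (adjusted p = 0.013) and no longer passed the threshold of 0.01.

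The 250 bases before the annotated start of each of these genes, from RefSeq on GRCh38.p14, are shown because these paralogues take the same place in the complex and moved in opposite directions. Capitals mark CG dinucleotides, the motif bound by KDM2B. RNF2 lies at chr1:185045308-185045557 and RING1 at chr6:33208250-33208499, both on the plus strand.
RNF2: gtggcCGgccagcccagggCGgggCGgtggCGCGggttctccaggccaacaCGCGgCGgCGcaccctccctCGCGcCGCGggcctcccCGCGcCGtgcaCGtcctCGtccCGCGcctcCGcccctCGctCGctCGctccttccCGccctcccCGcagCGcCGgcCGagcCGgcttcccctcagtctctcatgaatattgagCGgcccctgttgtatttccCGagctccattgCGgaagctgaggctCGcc
RING1: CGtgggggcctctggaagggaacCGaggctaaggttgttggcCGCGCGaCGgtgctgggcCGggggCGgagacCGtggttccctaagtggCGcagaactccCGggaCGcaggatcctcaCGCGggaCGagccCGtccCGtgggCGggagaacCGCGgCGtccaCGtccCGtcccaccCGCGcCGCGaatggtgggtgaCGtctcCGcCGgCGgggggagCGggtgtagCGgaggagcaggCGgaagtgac
Each window holds 34 CG dinucleotides, where the median of 35116 promoter windows of this length was 11 and 6.84% held at least 34. GC content was 74.4% for RNF2 and 72.8% for RING1, against a median of 58.0%. Of the 9 genes, 7 matched the promoter table with 12 start sites in all, CBX2 and CBX8 being the others. The E2F motif TTTCCCGC was in none of the 12 windows on either strand, and in 1.39% of all windows. The E-box CACGTG was in 1 window, of BMI1, and in 6.34% of all windows.

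BMI1 and PCGF2 are alternative PCGF subunits that direct RING1 or RNF2 to canonical complexes. BMI1 (ENSG00000168283, plus strand of chromosome 10, 22610028 to 22620413) was near the limit of detection in parental cells, with 13.25, 9 and 50.25 estimated counts, or 0.863, 0.655 and 3.08 CPM. The p85β KR-AA libraries held 271.95, 146.83 and 116.41 counts, or 7.42, 5.12 and 4.23 CPM. Parental replicate 3 stood apart from the other parental libraries and came nearest to the p85β KR-AA libraries, without reaching them. The log2 fold change was 1.83 (SE 0.44, edgeR adjusted p = 0.0019). Without parental replicate 3 it was 2.83, without parental replicate 1 it was 1.54 and its adjusted p was 0.0145, and without parental replicate 2 it was 1.47, under the 3-fold threshold. With the length offset it was 1.23 (adjusted p = 0.011) and with the length and GC offsets 0.16 (adjusted p = 0.73).

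Counts of BMI1 are uncertain, because the readthrough gene COMMD3-BMI1 (ENSG00000269897, 22605317 to 22618471) overlaps it on the same strand and shares its exons. COMMD3-BMI1 took 61.86, 85 and 62.89 counts in parental libraries and 459.39, 438.08 and 280.07 in p85β KR-AA libraries, more than BMI1 in every library. Added together, both genes reached 6.27 ± 1.11 CPM in the parental and 18.3 ± 3.30 CPM in the p85β KR-AA group (SD over 3 libraries). The sum differed by 1.54 on the log2 scale (SE 0.21, edgeR adjusted p = 1.9e-05), just under 3-fold. COMMD3-BMI1 also overlaps COMMD3 (22605315 to 22609235, same strand), so that the sum may hold reads of COMMD3 exons that are not of BMI1. COMMD3 itself was at 9.75 ± 3.61 CPM in the parental and 16.6 ± 0.940 CPM in the p85β KR-AA group. PCGF2 (ENSG00000277258, minus strand of chromosome 17, 36890151 to 36906070) had 58.5, 50.5 and 50.4 CPM in parental libraries and 27.6, 25.2 and 30.2 CPM in p85β KR-AA libraries. It was 1.92-fold lower, -0.94 on the log2 scale (SE 0.14, edgeR adjusted p = 4.9e-05), and under the scaling by library totals it was -0.02 (adjusted p = 0.92). CISD3 overlaps the end of PCGF2 on the opposite strand, with 2457.07 to 3074.42 counts in parental and 637.6 to 814.88 counts in p85β KR-AA libraries.

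The chromobox proteins CBX2, CBX7 and CBX8 read H3K27me3 in canonical PRC1, and all were lower in p85β KR-AA cells. CBX7 (ENSG00000100307, minus strand of chromosome 22, 39516172 to 39548685) fell from 45.4, 34.4 and 37.4 CPM to 12.2, 10.3 and 12.6 CPM. Its log2 fold change was -1.74 (SE 0.17, edgeR adjusted p = 8.28e-07). CBX8 (ENSG00000141570, minus strand of chromosome 17, 77765931 to 77775482) fell from 75.9, 74.1 and 60.4 CPM to 19.6, 19.0 and 23.8 CPM, a change of -1.75 on the log2 scale (SE 0.16, edgeR adjusted p = 3.54e-07). In both genes every p85β KR-AA library was far below the lowest parental one. CBX2 (ENSG00000173894, plus strand of chromosome 17, 77751947 to 77761782), a close neighbor of CBX8 on the chromosome, had 101, 71.1 and 82.9 CPM in parental and 40.0, 44.04 and 50.2 CPM in p85β KR-AA libraries. Its log2 fold change was -0.93 (SE 0.16, edgeR adjusted p = 0.00012), and -0.01 (adjusted p = 0.97) under the scaling by library totals. The decreases of CBX7 and CBX8 passed an adjusted p of 0.01 under every alternative that tested for any change, but not in the test against a fold of 3, and they were under 3-fold with library totals (-0.82 and -0.82), with at least 10 counts in every library (-1.54 and -1.56) and with the length and GC offsets (-1.28 and -1.41).

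PHC1, a polyhomeotic protein whose SAM domain lets PRC1 form larger assemblies, was higher in p85β KR-AA cells. PHC1 (ENSG00000111752, plus strand of chromosome 12, 9066492 to 9094063) had 4.58, 3.71 and 6.23 CPM in parental libraries and 17.3, 18.6 and 22.1 CPM in p85β KR-AA libraries. The lowest p85β KR-AA library was well above the highest parental one, and the log2 fold change was 1.99 (SE 0.22, edgeR adjusted p = 2.43e-06). It was 1.02 with the length offset and 1.80 with the length and GC offsets, with adjusted p-values of 0.0004 and 1.47e-06. A pseudogene copy, PHC1P1, named after its values were seen, had 5.6 to 11.2 counts in parental and 74.37 to 105.45 in p85β KR-AA libraries, so that part of the PHC1 counts is uncertain. M6PR overlaps the end of PHC1 on the opposite strand, with 1952 to 3246 counts per library. The sources used here do not say whether counting used strand, and without it reads of overlapping genes on opposite strands cannot be told apart.

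KDM2B (ENSG00000089094, minus strand of chromosome 12, 121866899 to 122018928), a histone demethylase that brings a variant PRC1 to CpG islands, had 26.8, 15.1 and 27.3 CPM in parental libraries. It had 37.9, 37.7 and 43.6 CPM in p85β KR-AA libraries. Parental replicate 2 was the lowest, and the groups did not overlap. The increase was the smallest among the PRC1 genes that were higher, 1.72-fold or 0.78 on the log2 scale (SE 0.21, edgeR adjusted p = 0.0036). KDM2B is the longest of the 9 genes at 5315 bases. With the length offset its value was -0.60 (adjusted p = 0.011) and with the length and GC offsets 0.32 (adjusted p = 0.041), and without p85β KR-AA replicate 3 the adjusted p was 0.018. Without parental replicate 2 the value was 0.53. RNF34, which overlaps KDM2B on the opposite strand, had 262 to 445.97 counts in parental and 593.85 to 809.15 counts in p85β KR-AA libraries.

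Levels of different genes were compared as CPM per kilobase of the deposited gene length. In parental cells RING1 led with 117 ± 20.1 CPM per kilobase (SD, n = 3). It was followed by CBX8 at 18.7 ± 2.26, CBX2 at 18.4 ± 3.29 and PCGF2 at 17.3 ± 1.51 CPM per kilobase, whose ranges overlapped. CBX7 was at 9.51 ± 1.39 and KDM2B at 4.34 ± 1.29 CPM per kilobase. At the bottom were PHC1 at 1.13 ± 0.298, RNF2 at 0.667 ± 0.210 and BMI1 at 0.433 ± 0.380 CPM per kilobase, each overlapping its neighbor. In p85β KR-AA cells the order was RING1 at 17.3 ± 0.711, CBX2 at 9.67 ± 1.11, PCGF2 at 9.04 ± 0.805, KDM2B at 7.47 ± 0.634, CBX8 at 5.54 ± 0.703, PHC1 at 4.51 ± 0.575, RNF2 at 2.89 ± 0.422, CBX7 at 2.85 ± 0.297 and BMI1 at 1.58 ± 0.465 CPM per kilobase. There the ranges of CBX2 and PCGF2, of CBX8 and PHC1, and of RNF2 and CBX7 overlapped. RING1 stood first and BMI1 last in both groups, but RING1 was 269-fold above BMI1 in parental cells and 10.99-fold above it in p85β KR-AA cells. Without parental replicate 3, a choice made after the data were seen, the parental value was 596-fold. The last place of BMI1 also rests on how reads were split with COMMD3-BMI1. With the readthrough gene added over the length of BMI1, a sum also taken after the data were seen, the level was 1.77 ± 0.315 and 5.15 ± 0.936 CPM per kilobase, above the means of RNF2 and PHC1 in both groups, and RING1 was 65.9-fold and 3.37-fold above it. The summed level may be too high for BMI1, because it may hold reads of COMMD3 exons. None of these levels carries an offset for trends with length or GC content. With length and GC offsets the log2 fold change of RING1 was -1.15, against -2.75 without them. That of BMI1 was 0.16 (edgeR adjusted p = 0.73), against 1.83.

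Because RING1 and RNF2 take the same place in the complex, as do BMI1 and PCGF2, their ratio was taken within each library, where the scaling of libraries cancels. The log2 ratio of RNF2 to RING1 per length was -7.97, -7.21 and -7.26 in parental libraries and -2.46, -2.41 and -2.91 in p85β KR-AA libraries. RING1 transcripts thus outnumbered those of RNF2 by 179-fold in parental cells and by 6.04-fold in p85β KR-AA cells, a difference of 4.89 on the log2 scale (exact permutation test, two-sided, p = 0.1, the smallest value that 3 against 3 libraries allow). The log2 ratio of BMI1 to PCGF2 was -6.26, -6.48 and -4.23 in parental and -2.11, -2.51 and -3.04 in p85β KR-AA libraries, a difference of 3.10 (exact permutation test, two-sided, p = 0.1). With the readthrough gene added to BMI1 the difference was 2.48. RNF2 and RING1 differ in GC content, 36.0% against 61.6% of the transcript, as do BMI1 and PCGF2, 40.1% against 57.5%. From the fit with length and GC offsets, an alternative added after the data were seen, the differences were 1.71 for RNF2 against RING1 and 0.49 for BMI1 against PCGF2.

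As shares of the length-scaled counts of each paralogue family, RNF2 made up 0.572% ± 0.151 of the RING pair in parental cells and 14.3% ± 2.22 in p85β KR-AA cells (SD over 3 libraries, as for the shares below). The shares carry no offset for trends with length or GC content. With length and GC offsets the log2 difference of RNF2 against RING1 was 1.71 instead of 4.89. That of BMI1 against PCGF2 was 0.49 instead of 3.10. Of the 6 PCGF genes, PCGF3 had the largest share in both groups, 40.9% ± 1.18 and 49.2% ± 2.12. The share of PCGF2 was 27.5% ± 2.07 in parental and 17.3% ± 1.88 in p85β KR-AA cells, and that of BMI1 was 0.717% ± 0.665 and 3.01% ± 0.857. Parental replicate 3 alone had a BMI1 share of 1.48%, and the parental mean without it was 0.334%. With all counts of COMMD3-BMI1 added, some of which may come from COMMD3 exons, the shares of BMI1 were 2.77% ± 0.582 and 9.19% ± 1.42. PHC2 was the main PHC gene, with 98.8% ± 0.375 in parental and 82.4% ± 0.949 in p85β KR-AA cells, and PHC1 held 1.07% ± 0.382 and 12.8% ± 0.783. Unlike RNF2, BMI1 and PHC1, KDM2B took a smaller share of the KDM2 pair in p85β KR-AA cells although its CPM was higher. Its share was 57.0% ± 4.05 in parental and 38.7% ± 1.03 in p85β KR-AA cells, with KDM2A taking the rest.

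**Figure D2:**
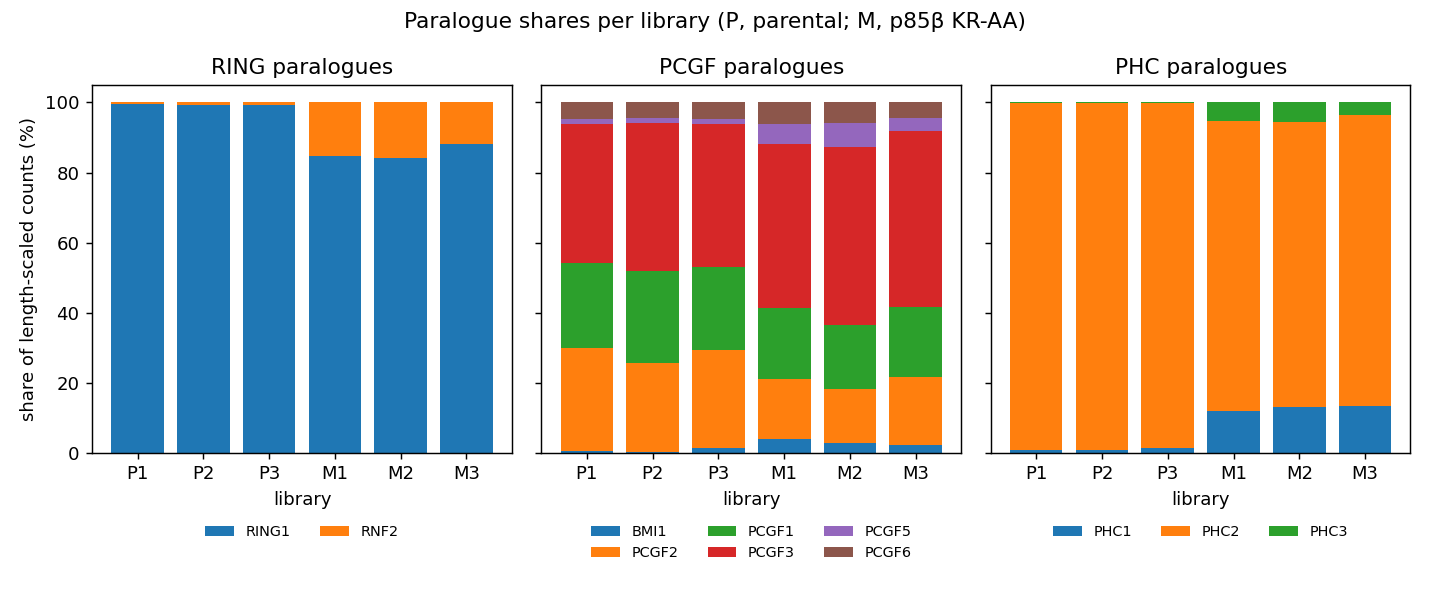
Share of the length-scaled counts of the RING, PCGF and PHC families (percent, stacked to the family's total) that each paralogue took in each library, with P1 to P3 for parental and M1 to M3 for p85β KR-AA libraries. RNF2 rises from under 1% of the RING pair in P1 to P3 to between 11.8% and 15.8% in M1 to M3, and PHC1 from at most 1.51% to at least 11.9% of the PHC genes. The shares carry no offset for trends with length or GC content.

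Across all tested genes the fold change went with gene properties, with a Spearman correlation of 0.45 with length (16059 genes) and -0.58 with the GC content of the transcript (15902 genes), a description over genes measured in the same 6 libraries. The 4 PRC1 genes that were higher had a GC content of 36.0% to 54.7% and the 5 that were lower one of 57.4% to 61.6%, without overlap, against a median of 50.0% over tested genes. In length they overlapped, at 3407 to 5315 bases against 1741 to 4628 bases. With an offset for length in the fit, RNF2 and PHC1 stayed higher and all 5 lower genes stayed lower at an adjusted p under 0.01, but none of the PRC1 genes was up-regulated by 3-fold and 4 were down-regulated. With offsets for length and GC content, PHC1 was the single PRC1 gene higher by 3-fold, none was lower by 3-fold, the 5 lower genes still passed an adjusted p of 0.01, and RING1 was at -1.15 (adjusted p = 1.90e-06). In every fit run that tested for any change, RING1, CBX7 and CBX8 were lower and PHC1 was higher with an adjusted p that passed 0.01. In the stricter edgeR test against a fold of 3, RING1 passed (adjusted p = 3.73e-06), and PHC1, CBX7 and CBX8 did not (adjusted p = 0.033, 0.17 and 0.13). An offset takes out every trend of the counts with length or GC content, so these values bound the change on neither side.

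**Figure D3:**
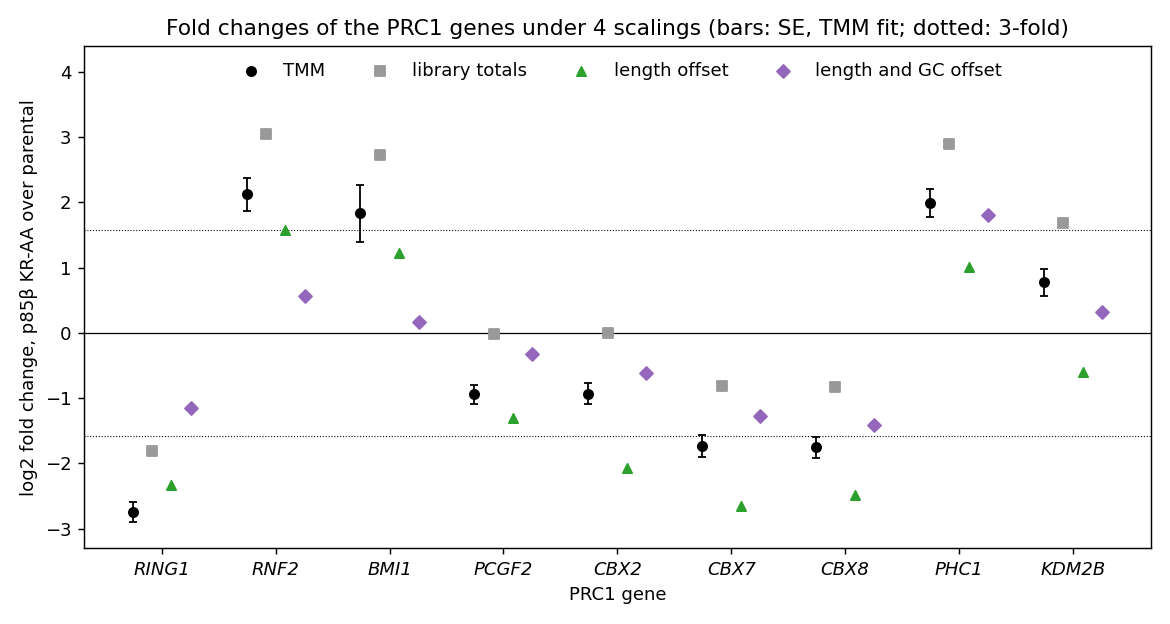
Log2 fold change of each PRC1 gene in p85β KR-AA over parental cells with TMM scaling (black, bars are standard errors), library totals (grey), a length offset (green) and length and GC offsets (purple), with dotted lines at 3-fold. RING1, CBX7 and CBX8 lie below 0 and RNF2, BMI1 and PHC1 above 0 under all scalings drawn, and KDM2B lies on both sides.

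Genes that work with the 9 PRC1 genes were taken from lists written with earlier results known, and not for how they moved. Of 13 other genes listed as core or canonical PRC1, 7 were higher and 4 lower at an adjusted p under 0.01. Their median log2 fold change was 0.88. The list is broader than its name, because it holds genes of variant complexes, such as RYBP, YAF2, PCGF1 and PCGF6, and also KDM2A. PHC2, the abundant relative of PHC1, fell from 464, 406 and 366 CPM to 109, 105 and 124 CPM, or by 1.87 on the log2 scale (adjusted p = 6.41e-08). PHC2 was at -0.95 with library totals, -2.67 with the length offset and -1.30 with the length and GC offsets. PHC3 rose from 1.92 ± 1.10 to 21.1 ± 3.39 CPM (SD, n = 3 each), or by 3.45 on the log2 scale (adjusted p = 4.09e-07), but it was at 0.93 with the length offset and at 0.35 (adjusted p = 0.26) with the length and GC offsets. KDM2A, the paralogue of KDM2B, rose by 1.80, PCGF5 by 1.64 and YAF2 by 0.88 on the log2 scale, but with the length offset they were at -0.09, -0.26 and -0.05, and with the length and GC offsets at 0.72, -0.84 and -0.91. CBX6 fell by 0.95 on the log2 scale, and it was at -0.03 with library totals and at -1.01 with the length and GC offsets. With TMM scaling the difference of PCGF3 was -0.001 and that of PCGF6 was 0.002, neither past the threshold. PCGF3 was at 0.93 with library totals, 0.48 with the length offset and 0.83 with the length and GC offsets, each with an adjusted p under 0.01. PCGF6 was at 0.93 with library totals (adjusted p = 0.0022) and at 0.09 with the length offset (adjusted p = 0.68). With the length and GC offsets PCGF6 was at -1.15 (adjusted p = 0.00012).

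Of 19 partners of variant PRC1, 10 were higher, 6 lower and 3 did not pass, with a median of 0.63. With TMM scaling the subunits of the PCGF6 complex went apart, with MGA at 3.61, L3MBTL2 at -1.96 and MAX at 0.40 (adjusted p = 0.033). MAX was at 1.32 with library totals, 0.96 with the length offset and 0.83 with the length and GC offsets, each with an adjusted p under 0.01. L3MBTL2 was at -1.60 with the length and GC offsets. USP7, a deubiquitinase found with PRC1, rose from 25.3 ± 4.52 to 103 ± 3.37 CPM (SD, n = 3 each), and BCOR, the partner of PCGF1, rose by 1.60 on the log2 scale, with -0.10 under the length offset. USP7 was at 2.02 without offsets, 0.47 with the length offset and 0.46 with the length and GC offsets, and MGA at 1.15 and 0.72 with these offsets. Among 5 genes of H2A deubiquitination, ASXL1, ASXL2, USP16 and MYSM1 were higher and BAP1 fell from 242 ± 38.2 to 68.7 ± 5.21 CPM (SD, n = 3 each). BAP1 was at -0.89 with library totals, -2.47 with the length offset and -1.24 with the length and GC offsets. With the length offset ASXL1 was at 0.13 (adjusted p = 0.47). With the length and GC offsets USP16 was at -0.09, ASXL2 at 0.60 (adjusted p = 0.022) and MYSM1 at 0.79, against 3.63 and 3.45 for ASXL2 and MYSM1 without them. Of 11 PRC2 genes, 8 were higher and 3 lower, with a median of 0.90. EZH1 rose by 2.65 (adjusted p = 6.92e-08), SUZ12 by 2.15 and EZH2 by 0.73 (adjusted p = 0.0043) on the log2 scale, and EED fell by 0.67, while EED was at 0.27 with library totals. With the length and GC offsets EZH1 was at 1.71, SUZ12 at 0.10 (adjusted p = 0.60), EZH2 at -0.32 and EED at -1.57. EED was at -0.21 (adjusted p = 0.27) with the length offset. All of these lists have to be read against 41.6% higher and 32.7% lower among all tested genes and a median of 0.32.

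By the root mean square difference between log2 CPM values centered on each gene's mean over the 6 libraries, CBX7 was closest to BAP1 (0.067) among the 48 genes of these lists, CBX2 to CBX6 (0.073), CBX8 to PHC2 (0.090) and PCGF2 to PHF19 (0.096). PHC1 was closest to USP7 (0.12), KDM2B to CSNK2A2 (0.19), RNF2 to SUZ12 (0.28), BMI1 to KDM2A (0.39) and RING1 to L3MBTL2 (0.44). By this measure CBX7 had the smallest of these differences, and BMI1 and RING1 had the largest. The measure takes in the size of the difference between groups and the spread between libraries. It does not show whether a gene moved in the same direction by another amount.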

How the data were processed

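RNA-seq libraries of DLD1 parental and p85β KR-AA cells, 3 each, were grouped by the sample titles. The source names of p85β KR-AA replicates 2 and 3 read R479A and R480A where title and genotype read R478A, and the title was used. The authors deposited 1 table of estimated counts (expected counts, not normalized, not whole) and a length per Ensembl gene. Per the study's methods reads were trimmed with SeqPrep and Sickle. The submitters' processing notes name HISAT2 2.1.0, RSEM 1.3.1, DESeq2 1.24.0 and build hg18, without their roles. The annotation behind the counts is not given in the sources used here, so symbols and positions are from GENCODE release 44 lifted to GRCh37 (56745 of 58884 identifiers matched), and GC content from the annotated transcript closest in length.

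Counts were rounded, filtered by filterByExpr (at least 10 counts, total 15), scaled by TMM and tested by the quasi-likelihood F test of edgeR 4.0.16 (R 4.3.3) with Benjamini-Hochberg adjustment, with thresholds of adjusted p 0.01 and fold 3 from the study's methods. This design assumed counts and the values needed rounding. 1 count was worth 0.0273 to 0.0728 CPM. Standard errors come from the fold change and F. A replicate block, library totals, other filters, DESeq2 1.42.0, left-out libraries and length or GC offsets (robust splines with 5 degrees of freedom, MASS 7.3.60.0.1) were alternatives. Same-numbered libraries did not deviate together (correlations -0.20, 0.18 and -0.06). Replicate pairs differed beyond sampling noise (chi-square per degree of freedom 4.35 to 37.3), so none is a copy. The code was tested on simulated data. All 9 PRC1 genes are named, with genes of 4 lists, overlapping genes and each PRC1 gene's closest list gene. Members and lists were chosen with earlier results of these data known. Values of 1 list gene are not reported here. ChIP-seq was not analysed here.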

Additional observations from a re-analysis of the deposited data

How the results depend on the processing

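The numbers of PRC1 genes past both thresholds (3 up, 3 down) and past the adjusted p alone (4 up, 5 down) stayed within 1.5-fold with DESeq2, without a filter, with each library left out (2 to 3 up and 3 down, 3 to 4 up and 5 down) and with BMI1 summed with its readthrough gene. With the replicate block, with or without robust moderation, they were 3 and 3, and 4 and 5, with BMI1 at 1.98. The replicate numbers did not pair the libraries. Prior degrees of freedom were infinite with the block under ordinary moderation and without the filter on low counts. The values below are up then down at both thresholds. Scaling by library totals gave 4 and 1 PRC1 genes (3 down by adjusted p alone), 7 and 0 other core genes against 4 and 1, 9 and 0 variant partners against 4 and 1, 4 and 0 deubiquitination genes against 2 and 1, and 8 up among PRC2 genes against 4. The length offset gave 0 PRC1 genes up (2 by adjusted p alone), 1 and 2 core genes, 1 and 4 partners, 0 deubiquitination genes up, 0 and 1 PRC2 genes, KDM2B at -0.60 and 3.90 for RNF2 against RING1. The length and GC offsets gave 1 and 0 PRC1 genes (1 up by adjusted p alone), 0 and 0 core genes, 2 and 2 partners, 0 and 0 deubiquitination genes, 1 and 1 PRC2 genes, 1.71 for RNF2 against RING1 and 0.49 for BMI1 against PCGF2. Tested against a fold of 3, 0 and 1 PRC1 genes, 2 and 0 core genes, 0 partners down, 0 deubiquitination genes down and 2 PRC2 genes up were past the threshold. With at least 10 counts in every library, BMI1 was not tested, 1 PRC1 gene was down and 4 deubiquitination genes were up. A fold of 2 gave 8 and 4 partners and 4 deubiquitination genes up. The cause of these shifts was not tested. Low parental counts limit BMI1 and RNF2, and 3 libraries a group limit the ratios.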
